A study of Homo sapiens with 8 samples.

Results

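Solute carriers are membrane proteins that move small molecules and ions across the plasma membrane and the membranes of organelles, and their gene symbols begin with SLC or SLCO. The transcripts described here are the 64 genes with such a symbol among the 3666 genes of the deposited table, chosen by name alone, with SLC16A1 left out. By their names 57 encode carriers, and the other 7 are antisense transcripts, pseudogenes, a scaffold protein and a transcription factor. GENCODE release 29 annotates 385 protein-coding genes with a matching symbol, and those outside the table were not analysed here.

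The cells were MIA PaCa-2, an established human pancreatic ductal adenocarcinoma line, labelled wild type and untreated. A fluorescence sort separated cells by how readily lactic acid crosses their membrane, into a low fraction (PHLac-low) and a high fraction (PHLac-high), after a brief exposure of both to lactate medium that was then washed out. Every sort was done in 4 repeats, so 4 PHLac-low libraries are paired with 4 PHLac-high libraries by repeat number. Both fractions come from the same line and medium, and each library is a sorted pool of cells, in which fewer cells making a transcript and less of it per cell cannot be told apart.

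Carriers of the large neutral amino acids work as pairs, in which a glycoprotein heavy chain brings a transporting light chain to the cell surface. Other families exchange protons, bicarbonate, chloride, sodium or phosphate and so set the pH and ion content of the cell. Some members of the SLC16 family, though not all, carry lactate and other monocarboxylates. Pancreatic cancer cells are known for a high demand for glutamine and glucose and for exporting acid, and these carriers stand at the entry and exit of those routes.

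Values are normalised counts, which are reads per gene divided by 1 size factor per library. Changes are log2 differences of PHLac-high minus PHLac-low within repeats, estimated with limma on log2(normalised count + 1) with the repeat as a block, and adjusted p-values are Benjamini-Hochberg values over all 3666 genes. The authors listed only genes that differed between these same libraries, so a small p here describes how steadily a listed gene changed and is no independent evidence of a change. Of all listed genes 99.9% passed the 0.05 threshold, and so did all 64 solute carrier genes. Reads in the listed genes ranged from 8979276 to 23176205 per library. Both libraries of repeat 4 stood apart on the first principal component, the PHLac-low library at -6.88 against -25.9 to -24.5 for the other 3 of its group and the PHLac-high library at 33.4 against 14.1 to 18.5. Of 16 markers of epithelial, mesenchymal, ductal and other cell types 5 were in the table. KRT19, an epithelial keratin, and SOX9, a ductal factor, were higher in PHLac-high, with log2 changes of 0.23 and 1.15. Of 5 fibroblast, leukocyte and endothelial markers 3 were in the table (COL1A1, ACTA2 and PTPRC). Their summed normalised counts were 444 to 888 per PHLac-low library and 226 to 417 per PHLac-high library, none was at 0 in any library, and their part in the results below was not tested.

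Across the 64 genes, 28 were higher and 36 lower in PHLac-high, against 58.7% higher and 41.2% lower among all listed genes. Their median log2 change was -0.30, with a range from -1.75 to 0.88, while the median of all listed genes was 0.25. The substrate classes went different ways. Of 10 amino acid carriers 9 were higher, and of 17 ion and acid carriers 14 were lower. These classes differed in level too, with a median mean of 6730 normalised counts for amino acid carriers and 874 for ion and acid carriers. The part of level in this contrast was not tested. Metal carriers were higher in 4 of 6 and sugar carriers in 2 of 5. In the class of other organic substrates 9 of 13 were lower. The direction was the same in all 4 repeats for 63 of the 64 genes (96.1% of all listed genes), and SLC7A11 was the exception. The values of the fractions did not overlap for 22 of the 64, close to the 36.7% of all listed genes. A log2 change of at least 0.5 in either direction was seen in 25 of them (38.9% of all listed genes) and one of at least 1 in 5 (11.1%). Without the repeat as a block 19 of the 64 passed, 7 higher and 12 lower, against 31% of all listed genes (20.3% higher and 10.7% lower). With upper-quartile scaling, taken over the listed genes alone, 44 of the 64 passed, 8 higher and 36 lower. The share among all listed genes was 64.4% (23.2% higher and 41.2% lower).

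**Figure D1:**
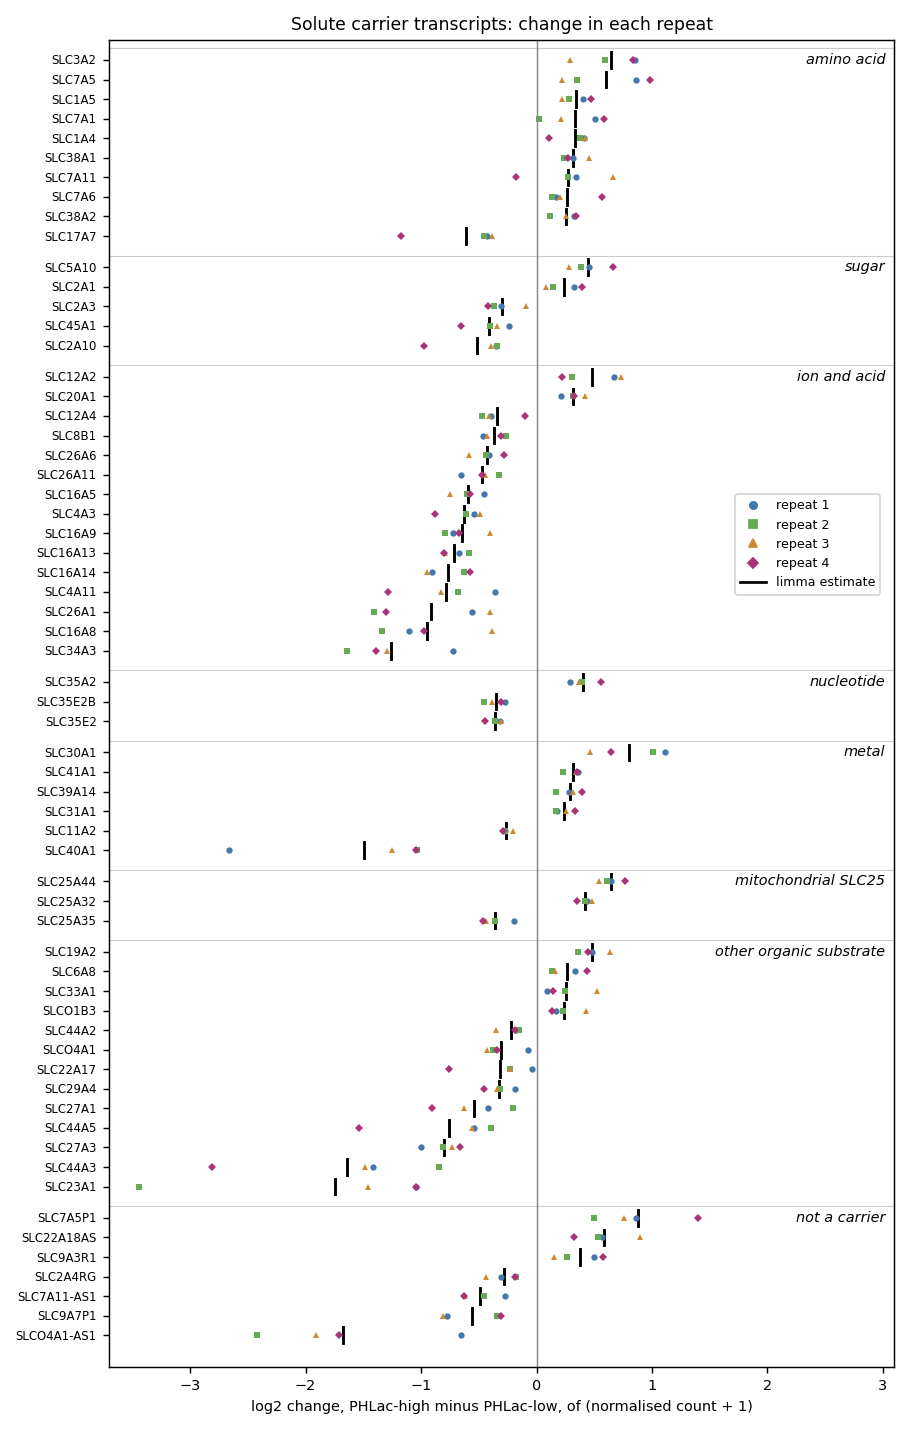
Log2 change of PHLac-high minus PHLac-low (horizontal axis, on the normalised count + 1 scale) for 62 of the 64 genes (rows, grouped by substrate class), with 1 symbol per repeat and a black bar for the limma estimate. The bars of the amino acid carriers lie right of 0 except that of SLC17A7 (for SLC7A11 the symbol of repeat 4 lies left of 0), and 13 of the 15 ion and acid carriers drawn lie left of it.

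Transcripts of the amino acid carriers at the cell surface were higher in PHLac-high. SLC3A2 (Entrez 6520, chr11:62856102-62888875 in GRCh38), the CD98 heavy chain that carries several light chains to the surface, gave 7009, 8397, 11596 and 9118 normalised counts in PHLac-low repeats 1 to 4 and 12698, 12690.2, 14208 and 16318 in PHLac-high. Every PHLac-high library lay above every PHLac-low library, and the mean was 1.55-fold higher. Its log2 change was 0.65 ± 0.09 (SE, adjusted p = 0.000533 in limma).

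SLC7A5 (Entrez 8140, chr16:87830023-87869488) encodes LAT1, the light chain that imports leucine and other large neutral amino acids with SLC3A2. It gave 6678, 9034, 14898 and 9837 normalised counts in PHLac-low repeats 1 to 4 and 12152, 11527, 17380.0 and 19387 in PHLac-high. The fractions overlapped, because the PHLac-low library of repeat 3 was higher than the PHLac-high libraries of repeats 1 and 2, yet it rose within each repeat. The log2 change was 0.60 ± 0.12 (SE, adjusted p = 0.00231 in limma), and it did not pass without the block (adjusted p = 0.0793). SLC3A2 changed by 0.86, 0.60, 0.29 and 0.84 in repeats 1 to 4, and SLC7A5 by 0.86, 0.35, 0.22 and 0.98. Both changed least in repeat 3, and they differed most in repeat 2. Per kilobase of transcript, the ratio of SLC3A2 to SLC7A5 was 1.88 ± 0.23 in the PHLac-low libraries and 1.94 ± 0.29 in the PHLac-high libraries (SD, n = 4 each), a difference smaller than the spread between libraries.

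These 2 genes are shown by the 250 bases before a transcription start, as RefSeq gives them for GRCh38.p14, because their transcripts rose together and their products act as a pair. The heavy chain window (SLC3A2, chr11:62881449-62881698, plus strand) is the first of 3 that RefSeq gives for the gene, and it lies inside the gene span given above, before an internal start. The light chain window (SLC7A5, chr16:87869508-87869757, minus strand) holds 1 E-box, CACGTG, a motif bound by MYC and related factors, which is in capitals. Capitals in the SLC3A2 window mark a core of the metal response element, described with SLC30A1.
SLC3A2: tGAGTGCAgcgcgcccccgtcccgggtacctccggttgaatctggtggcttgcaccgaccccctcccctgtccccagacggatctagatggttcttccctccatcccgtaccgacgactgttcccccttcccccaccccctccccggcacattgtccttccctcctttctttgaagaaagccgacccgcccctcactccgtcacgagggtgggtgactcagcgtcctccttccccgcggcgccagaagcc
SLC7A5: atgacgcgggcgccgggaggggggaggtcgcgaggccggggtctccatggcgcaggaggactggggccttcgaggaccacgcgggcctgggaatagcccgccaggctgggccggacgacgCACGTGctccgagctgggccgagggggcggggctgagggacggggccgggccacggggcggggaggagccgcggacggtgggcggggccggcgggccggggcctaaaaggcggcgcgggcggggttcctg
The SLC7A5 window has 79.6% G and C and that of SLC3A2 65.6%. The E-box, searched on both strands (it reads the same on each), occurred in 5 of 71 windows of the 48 solute carrier genes that RefSeq entries matched, or 7.04%, against 6.31% of all 34796 windows. A composite element of C/EBP and ATF factors, TGATGNAAN on either strand and known from genes of the amino acid response, occurred in 2 of the 71 (2.82%) and in 3.14% of all windows. Neither printed window holds that element. A match is only a match of letters.

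The other light chains of SLC3A2 in the table changed less. SLC7A6, which exchanges cationic for neutral amino acids, gave 1814, 2065, 2187 and 2394 in PHLac-low and 2036, 2267, 2521 and 3540.3 in PHLac-high. It rose in each repeat, most in repeat 4, by 0.27 ± 0.08 on the log2 scale (SE, adjusted p = 0.0116 in limma), and by 0.17 without repeat 4. SLC7A11, the cystine and glutamate exchanger xCT, gave 5499.8, 3869, 4914 and 4794 in PHLac-low and 6964, 4679, 7793 and 4231 in PHLac-high. Here the repeats disagreed. SLC7A11 changed by 0.34, 0.27, 0.67 and -0.18 in repeats 1 to 4, so repeat 4 went the other way. The estimate of 0.27 ± 0.12 (SE) passed with all repeats (limma adjusted p = 0.0426) and did not pass without repeat 1 (0.101), repeat 2 (0.114) or repeat 3 (0.209). Its change was 0.14 without repeat 3 and 0.43 without repeat 4. The antisense transcript SLC7A11-AS1, whose annotated span overlaps the gene, was lower in each repeat, from 203, 212, 165 and 162 to 168, 154, 107 and 105. Strand use in the counting is not given in the sources used here, so reads of the overlapping part of such a pair cannot be told apart.

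Glutamine and small neutral amino acid carriers rose as well. SLC1A5 (ASCT2), an exchanger that brings in glutamine, gave 7669, 9092, 12186 and 9899 normalised counts in PHLac-low repeats 1 to 4 and 10161, 11023, 14202 and 13698 in PHLac-high. The fractions overlapped and the change was 0.34 ± 0.06 (SE, adjusted p = 0.00117 in limma). SLC38A2 (SNAT2), a sodium-coupled carrier known to respond to amino acid shortage, had the highest level per kilobase of all 63 genes with a transcript length, 8066 normalised counts per kilobase. It gave 36124, 39422, 36513 and 31716 in PHLac-low and 45152, 42634, 43635 and 40209 in PHLac-high normalised counts without overlap, a log2 change of 0.26 ± 0.06. Its relative SLC38A1 (SNAT1) had 1006 per kilobase and changed by 0.32 ± 0.06. SLC38A1 was highest in repeat 3 in both fractions, at 8797 and 12072 normalised counts.

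SLC1A4 (ASCT1), which carries serine and alanine, differed more between repeats than between fractions. It gave 165, 201, 1060.3 and 342 in PHLac-low and 219.8, 261, 1416 and 369 in PHLac-high. Both fractions of repeat 3 were several times as high as those of the other repeats, while each repeat showed a rise (log2 change 0.33 ± 0.10, SE). Without repeat 3 it did not pass (limma adjusted p = 0.067). SLC7A1 (CAT1), the carrier of arginine and lysine, changed by 0.51, 0.03, 0.21 and 0.59 in repeats 1 to 4, so repeat 2 showed almost none. SLC17A7, the vesicular glutamate transporter VGLUT1 of neurons, was the only amino acid carrier that was lower. It was also the least abundant of them, with 118, 242, 158 and 69.8 in PHLac-low and 87.7, 176, 120.5 and 30.5 in PHLac-high.

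**Figure D2:**
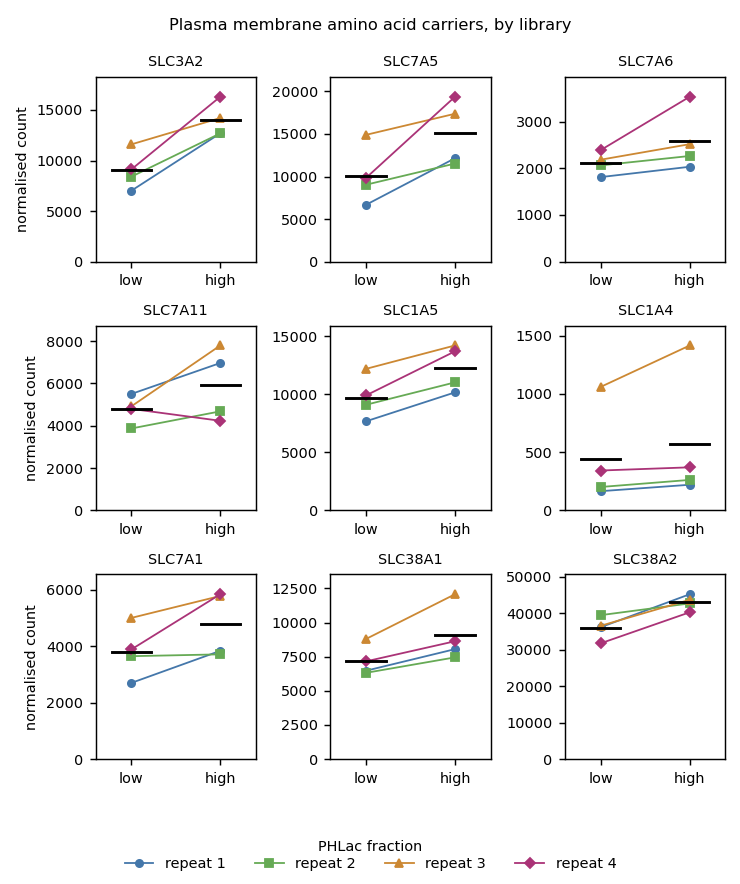
Normalised counts (vertical axes, each starting at 0) of 9 amino acid carriers in the PHLac-low and PHLac-high library of each repeat; lines join the libraries of a repeat and black bars are means of 4. Lines slope upward in every panel except that of SLC7A11, where repeat 4 slopes down, and repeat 3 stands apart for SLC1A4.

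These 9 carriers were higher under all 11 other settings tried. Of the 9, 8 were measured where only genes at or above the median expression were kept. Dropping the block or the scarcer genes leaves each estimate as it was, so direction could not differ there. Leaving out 1 repeat could not turn a gene with the same direction in all 4 repeats, as all but SLC7A11 had. The pseudocount of 0.1, edgeR and DESeq2 reused the same reads and size factors. How many passed depended on the scaling. Upper-quartile scaling lowered every change by about the same amount (the median of all listed genes moved from 0.25 to 0.02). The quartile was taken over the listed genes alone, 58.7% of which were higher, so this scaling can remove a shift shared by those genes. After it 2 of the 9 passed (23.2% of all listed genes passed as higher, 850 against 2153 in the main fit). SLC1A5, SLC38A1, SLC38A2 and SLC7A11 were among those that did not, with changes of 0.12, 0.10, 0.03 and 0.05. After correction for transcript GC content and length 6 of the 9 passed (39.6% of all listed genes with a transcript passed as higher). SLC38A2 and SLC7A11 then did not, at 0.11 and 0.09, and neither did SLC17A7, at -0.45. Without repeat 4 all 9 passed (98.9% of all listed genes), and without the block 1 did (20.3% passed as higher).

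Genes that act on amino acid carriers were read from a list made by role, with earlier results of these data known. ATF4, the transcription factor that drives amino acid carrier genes when amino acids are short, was higher, with a log2 change of 0.54 ± 0.06 (SE, adjusted p = 0.000166 in limma). ATF3 changed by 1.28 ± 0.14, and NFE2L2, the NRF2 factor that acts on SLC7A11, by 0.72 ± 0.08. SESN2, a leucine sensor, changed by 0.41 ± 0.09. Of 4 such transcription factors 3 were listed and higher, and of 8 genes of lysosomal amino acid sensing 2 were listed and both were higher. NEDD4L, a ubiquitin ligase that removes carriers from the surface, was lower (log2 change -0.40 ± 0.08).

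Ion and acid carriers were mostly lower in PHLac-high, with a median log2 change of -0.59. This median was -0.32 after the correction for GC content and length and -0.82 with upper-quartile scaling. Where only genes at or above the median expression were kept, 2 ion and acid carriers were higher and 3 lower, with a median of -0.33. At that floor all 8 amino acid carriers measured were higher, as were 76.9% of all genes there. The 5 SLC16 family members described here, other than SLC16A1, were all lower. SLC16A5 (MCT6, Entrez 9121, chr17:75087727-75106162) was the most abundant of the 5 per kilobase, at 1236. It gave 2791, 3322, 3705 and 2408 normalised counts in PHLac-low repeats 1 to 4 and 2034, 2185, 2209 and 1619 in PHLac-high, without overlap, and was 1.52-fold lower in PHLac-high (log2 change -0.59 ± 0.07, SE, adjusted p = 0.000187 in limma).

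SLC16A14, a family member whose substrate is poorly known, gave 434, 268, 357 and 233 in PHLac-low and 232, 173, 185 and 156 in PHLac-high. Its lowest PHLac-low library was just above its highest PHLac-high library, with a log2 change of -0.76 ± 0.12 (SE). SLC16A13 gave 441, 503, 551 and 305 in PHLac-low and 276, 335, 318 and 175 in PHLac-high. It fell in every repeat, by -0.67, -0.58, -0.79 and -0.80 on the signed log2 scale, but the PHLac-low library of repeat 4 was below the PHLac-high libraries of repeats 2 and 3. SLC16A9 likewise fell in each repeat (log2 change -0.65 ± 0.11). SLC16A8 (MCT3), the lactate carrier of the retinal pigment epithelium, was scarce, with 56.6, 60.3, 67.1 and 40.1 in PHLac-low and 25.7, 23.3, 51.3 and 19.9 in PHLac-high, and its log2 change was -0.95 ± 0.24. SLC16A1 itself went the other way, with 0.41 ± 0.05 (SE). The 5 were lower under those 11 settings too, of which some, leaving out a repeat included, could not change a direction, as said above. Only 1 of the 5 was measured where only genes at or above the median expression were kept. All 5 passed without repeat 4 (98.9% of all listed genes). All 5 also passed with upper-quartile scaling, where 1510 listed genes passed as lower, the same number as in the main fit. After correction for GC content and length 4 passed (27% of all listed genes with a transcript passed as lower), and SLC16A8 did not, at -0.54. Without the block 2 passed (10.7% of all listed genes passed as lower, 392 against 1510 in the main fit).

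**Figure D3:**
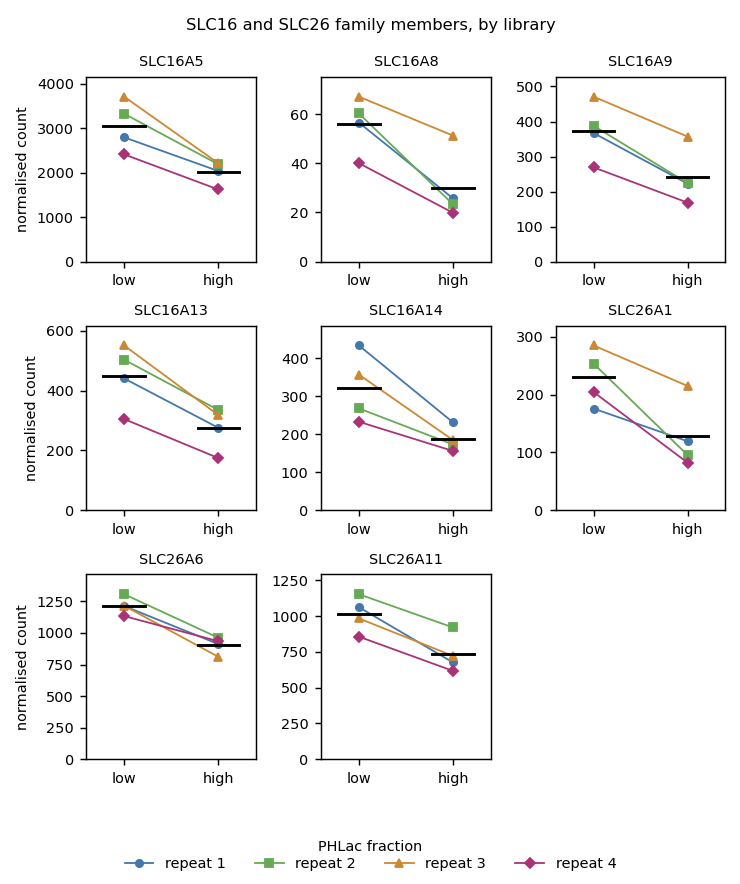
Normalised counts (vertical axes, each starting at 0) of 5 SLC16 and 3 SLC26 genes in the PHLac-low and PHLac-high library of each repeat; lines join the libraries of a repeat and black bars are means of 4. All 32 lines slope downward.

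Listed members of the SLC26 and SLC4 families were lower too. SLC26A6, which exchanges chloride for bicarbonate and oxalate, gave 1214, 1307, 1216 and 1134 in PHLac-low and 912, 962, 811 and 935 in PHLac-high. The fractions did not overlap, and the spread within each was small (log2 change -0.43 ± 0.08, SE, adjusted p = 0.00138 in limma). SLC26A11 and SLC26A1, which carry sulfate, changed by -0.47 ± 0.08 and -0.92 ± 0.19. SLC26A1 was uneven, at -0.56, -1.40, -0.41 and -1.31 in repeats 1 to 4. SLC4A3 (AE3), a chloride and bicarbonate exchanger, gave 1220.4, 1471, 1338 and 1021 in PHLac-low and 837, 960.3, 953 and 555 in PHLac-high, without overlap. SLC4A11, known from the corneal endothelium, gave 694, 1017, 974 and 1571 in PHLac-low and 541, 634, 549.9 and 645 in PHLac-high. Its PHLac-high values lay close together, and its PHLac-low value in repeat 4 was the highest of all 8, and its log2 change ranged from -0.36 in repeat 1 to -1.28 in repeat 4.

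Other ion carriers split. SLC34A3, a sodium and phosphate cotransporter of the kidney, fell most among ion carriers with a mean above 100, from 105, 116, 212 and 189 to 63.1, 36.5, 85.9 and 71.5 normalised counts, 2.42-fold. The widely expressed phosphate carrier SLC20A1 (PiT1), with 3406 per kilobase the most abundant ion carrier, rose instead, by 0.32 ± 0.05 on the log2 scale. SLC12A2 (NKCC1), which brings chloride into the cell, gave 947, 1098, 1151 and 1404 in PHLac-low and 1509, 1356, 1909.8 and 1640.4 in PHLac-high and rose by 0.48 ± 0.10. SLC12A4 (KCC1), which lets potassium and chloride out, was lower by 1.27-fold, with a log2 change of only -0.10 in repeat 4. SLC8B1 (NCLX), which releases calcium from mitochondria, changed by -0.37 ± 0.09.

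The pumps and subunits that power or accompany these carriers were read from the same list by role. Of 16 V-ATPase subunits, the pump that acidifies lysosomes, 7 were in the table and all 7 were higher. The largest change among them was in ATP6V1G1 (0.54 ± 0.06, SE). The sodium pump subunits ATP1B1 and ATP1B3 changed by 1.23 ± 0.12 and 0.55 ± 0.08. ATP1B1 gave 641, 716, 696 and 1023 in PHLac-low and 1625, 1711, 2051 and 1732 in PHLac-high, without overlap. MPC1 and MPC2, the mitochondrial pyruvate carrier, were both higher (0.43 ± 0.09 and 0.37 ± 0.05). NPTN, a helper subunit of the monocarboxylate carriers, changed by 0.32 ± 0.06. In all 23 of 68 listed partner genes were in the table. Of these 22 were higher and 1 lower, against 58.7% and 41.2% of all listed genes. Direction went with level in the table, and of all genes at or above its median expression 76.9% were higher.

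Among sugar carriers the 2 major glucose transporters moved in opposite directions. SLC2A1 (GLUT1, Entrez 6513, chr1:42925375-42959176) gave 2836, 3040.2, 3565 and 3548 normalised counts in PHLac-low repeats 1 to 4 and 3544, 3349, 3774 and 4655 in PHLac-high. It rose in each repeat, and the fractions overlapped (log2 change 0.23 ± 0.07, SE, adjusted p = 0.00971 in limma). SLC2A3 (GLUT3), a high-affinity glucose transporter, gave 7686, 6574, 6693 and 2440.3 in PHLac-low and 6202, 5090.1, 6295 and 1823 in PHLac-high. In repeat 4 both fractions were far below the other repeats, and each repeat showed a fall (log2 change -0.30 ± 0.07, SE, adjusted p = 0.00363 in limma).

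The ratio of SLC2A1 to SLC2A3 per kilobase is taken within a library, so no scaling enters it. It was 0.39, 0.49, 0.57 and 1.55 in PHLac-low repeats 1 to 4 and 0.61, 0.70, 0.64 and 2.72 in PHLac-high. The ratio was higher in PHLac-high in all 4 repeats, and SLC2A1 exceeded SLC2A3 per kilobase only in the libraries of repeat 4. With upper-quartile scaling SLC2A1 changed by 0.01 and did not pass (limma adjusted p = 0.921). Neither gene passed without the block (0.148 and 0.532).

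The remaining sugar carriers were less abundant. SLC5A10, a sodium-coupled mannose and fructose carrier, rose by 0.45 ± 0.09. SLC45A1, a proton-coupled sugar carrier, changed by -0.41 ± 0.08 and SLC2A10 (GLUT10) by -0.52 ± 0.13. After the correction for GC content and length SLC45A1 changed by -0.07 and did not pass (limma adjusted p = 0.437), and with upper-quartile scaling SLC5A10 did not (0.0548). All 5 sugar carriers changed most in repeat 4, as did 30 of the 64 genes and 1386 of the 3666. None of the 5 had fractions without overlap.

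Metal carriers were higher in 4 of 6. SLC30A1 (ZnT1, Entrez 7779, chr1:211571568-211578742), which exports zinc from the cell and is a known target of the zinc sensor MTF1, rose most among them. It gave 1316, 2783, 2161 and 2645 normalised counts in PHLac-low repeats 1 to 4 and 2841, 5586, 2977 and 4127 in PHLac-high. Every PHLac-high library lay above every PHLac-low library, the mean was 1.74-fold higher, and the log2 change was 0.80 ± 0.11 (SE, adjusted p = 0.000371 in limma). The change varied between repeats, at 1.11, 1.01, 0.46 and 0.64. MTF1 itself was higher, by 0.34 ± 0.10.

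The 250 bases before the start of SLC30A1 (chr1:211579162-211579411, minus strand, RefSeq, GRCh38.p14) are shown because the gene is known to answer to MTF1, which binds metal response elements. The core of that element was searched as TGCACNC or TGCGCNC on both strands. Capitals mark the 1 match, on the opposite strand, which begins 49 bases before the RefSeq start. The window does not adjoin the gene span given above, which on this strand starts at 211578742.
SLC30A1: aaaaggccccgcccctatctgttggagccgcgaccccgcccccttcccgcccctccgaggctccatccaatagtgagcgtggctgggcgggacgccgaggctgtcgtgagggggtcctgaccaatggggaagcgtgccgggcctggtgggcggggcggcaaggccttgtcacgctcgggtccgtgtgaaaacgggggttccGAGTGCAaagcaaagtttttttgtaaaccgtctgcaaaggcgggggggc
This short core is common. It occurred in 17 of the 71 solute carrier windows (23.9%) and in 24.8% of all windows.

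Import carriers of zinc and iron moved less than SLC30A1. SLC39A14 (ZIP14), which imports zinc and iron, gave 6003, 7029, 8855 and 7101 in PHLac-low and 7287, 7882, 11046 and 9359 in PHLac-high and had 1739 per kilobase, the highest of the metal carriers. Its change of 0.29 ± 0.06 passed (limma adjusted p = 0.00204) although the fractions overlapped. SLC11A2 (DMT1), which imports iron, was lower without overlap, from 1057, 1006, 1142 and 1034 to 872, 832, 991 and 843, and it changed evenly across repeats (-0.28, -0.27, -0.20 and -0.29). SLC40A1 (ferroportin), the only known iron exporter, was scarce and gave 72.0, 19.7, 29.7 and 17.5 in PHLac-low and 10.5, 9.12, 11.9 and 7.94 in PHLac-high. Its fractions did not overlap, the PHLac-low library of repeat 1 was far above the others, and the means differed 3.52-fold with that library and 2.26-fold without it.

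SLC41A1, a magnesium carrier, rose by 0.32 ± 0.06 without overlap, and SLC31A1 (CTR1), the copper importer, by 0.23 ± 0.06. Among 10 genes of metal storage and sensing 4 were listed and higher. The transferrin receptor TFRC changed by 0.84 ± 0.08, and the ferritin chains FTH1 and FTL by 0.22 ± 0.05 and 0.26 ± 0.05. TFRC and SLC11A2, which both serve iron uptake, thus changed in opposite directions.

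**Figure D4:**
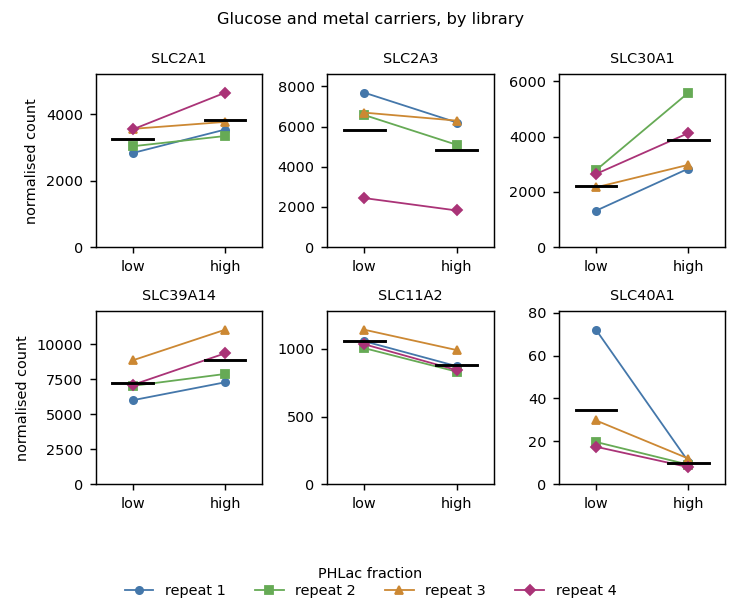
Normalised counts (vertical axes, each starting at 0) of 2 glucose and 4 metal carriers in the PHLac-low and PHLac-high library of each repeat; lines join the libraries of a repeat and black bars are means of 4. SLC2A1 and SLC2A3 slope in opposite directions, and repeat 4 is low for SLC2A3 in both fractions.

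Mitochondrial carriers of the SLC25 family were few, 3 of 48 annotated. SLC25A44 (Entrez 9673, chr1:156193932-156212796), which takes branched-chain amino acids into mitochondria, gave 1779.5, 1622, 1722 and 1938 normalised counts in PHLac-low repeats 1 to 4 and 2783, 2485, 2500.2 and 3303 in PHLac-high. It was 1.57-fold higher, without overlap and with like changes in the repeats (0.64, 0.61, 0.54 and 0.77), and had the smallest limma adjusted p of the 64 genes, 0.000121. SLC25A32, which carries folate and FAD, gave 832, 1018, 907 and 884 in PHLac-low and 1124, 1358, 1264 and 1127 in PHLac-high, also without overlap. SLC25A35, whose substrate is not well known, was lower (log2 change -0.36 ± 0.09), and its fractions overlapped.

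Members of the SLC35 family, classed by name as nucleotide sugar carriers, numbered 3. SLC35A2, which brings UDP-galactose into the Golgi, gave 1594, 1527, 1646 and 1623 in PHLac-low and 1944, 2002, 2121 and 2392 in PHLac-high and rose by 0.40 ± 0.07 without overlap. SLC35E2 and SLC35E2B were lower by -0.36 and -0.35. They are near-identical copies, so the division of reads between them is uncertain.

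Of the 13 carriers of other organic substrates 4 rose and 9 fell. SLC19A2, a thiamine carrier, rose by 0.48 ± 0.09, from 386, 505, 527 and 324 to 538, 649, 818 and 441 normalised counts. SLC6A8, the creatine carrier, had 2119 per kilobase, the highest of this class, and rose by 0.26 ± 0.06. SLC33A1, which takes acetyl-CoA into the endoplasmic reticulum, rose by 0.25 ± 0.08, most in repeat 3 (0.53). SLC33A1 did not pass without repeat 2 (limma adjusted p = 0.0555), and without repeat 3 its change was 0.16 (0.0907).

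The fatty acid carriers SLC27A1 and SLC27A3 were both lower, of which SLC27A3 alone also passed after the correction for GC content and length. SLC27A3 gave 547, 458, 489 and 303 in PHLac-low and 274, 261, 293 and 191 in PHLac-high, without overlap, a 1.76-fold difference (log2 change -0.80 ± 0.10, SE, adjusted p = 0.000318 in limma). SLC27A1 gave 2442, 2389, 2282 and 1451 in PHLac-low and 1819, 2078, 1473 and 775 in PHLac-high, and repeat 4 was lowest in both fractions. Its log2 change was -0.54 ± 0.11, and -0.20 after that correction (limma adjusted p = 0.121). All 3 listed choline carrier genes of the SLC44 family were lower. SLC44A2, the abundant one at 1272 per kilobase, changed by -0.22 ± 0.06, SLC44A5 by -0.76 ± 0.20 (-0.50 without repeat 4) and the scarce SLC44A3 by -1.64 ± 0.35. SLC23A1, a vitamin C carrier, was lower as well but near the detection limit, with 2 reads in its lowest library. Its mean was 21.5 ± 11.2 normalised counts in PHLac-low against 6.20 ± 5.35 in PHLac-high (SD, n = 4).

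Organic anion carriers of the SLCO group differed in direction. SLCO1B3, a liver bile acid and drug carrier, was higher by 0.24 ± 0.08, and in the authors' deposited table its adjusted p of 0.0499 was the closest of the 64 to the limit of the table. It did not pass without repeat 3 (limma adjusted p = 0.0719). SLCO4A1 was lower by 1.25-fold, with 4474, 8327, 5843 and 7496 in PHLac-low and 4241, 6417, 4339.6 and 5908 in PHLac-high. Its antisense transcript SLCO4A1-AS1, annotated within the span of SLCO4A1 on the other strand, fell further, from 68.6, 254, 129 and 240.3 to 43.3, 46.6, 33.4 and 72.8, a 3.52-fold difference in means. SLC29A4, a monoamine carrier, and SLC22A17, a receptor for lipocalin, changed by -0.33 ± 0.07 and -0.31 ± 0.11. SLC22A17 did not pass without repeat 2 (limma adjusted p = 0.0565) or repeat 4 (0.0533), and its change without repeat 4 was -0.17.

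Of the 7 genes that are not carriers, SLC9A3R1 (NHERF1), a scaffold that anchors sodium and proton exchangers, was higher (0.37 ± 0.08). SLC7A5P1, a pseudogene of SLC7A5, gave 134, 236, 186 and 119 in PHLac-low and 244, 333, 315 and 315 in PHLac-high without overlap, and reads of such a copy cannot be told from those of SLC7A5 with certainty. SLC22A18AS was higher too (0.58 ± 0.17, limma adjusted p = 0.064 without repeat 3), while SLC2A4RG, a transcription factor, and the pseudogene SLC9A7P1 were lower (-0.28 ± 0.06 and -0.56 ± 0.16).

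Level and base composition moved with direction. The 28 higher genes had a median mean of 3076 normalised counts and the 36 lower genes one of 709.8. Among all listed genes these medians were 2155 and 575. Transcripts of the higher solute carrier genes had a median GC content of 52.3% and those of the lower genes 59.2%, against 46.6% and 56.8% among all listed genes. With a per-library correction for GC content and transcript length, 46 of 63 genes passed, 22 higher and 24 lower, against 66.5% of all listed genes with a transcript (39.6% higher and 27% lower). The median log2 change moved from -0.30 to -0.03, and that of all listed genes from 0.25 to 0.10. Of the ion and acid carriers 12 of 17 were still past the threshold and lower, and the median of the amino acid carriers was 0.25. SLC25A35 and SLC33A1 did not pass after it, at -0.15 and 0.03. Among the 31 genes at or above the median expression of the table, 20 were higher and 11 lower, against 76.9% higher and 23% lower of all genes at that floor. Their median was 0.26, and that of all genes there was 0.28. Upper-quartile scaling ended the calls of SLC20A1, SLC39A14, SLC41A1, SLC35A2, SLC33A1 and SLC6A8 as well, with changes from 0.03 to 0.18.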

How the data were processed

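RNA from 8 sorted MIA PaCa-2 samples (4 PHLac-low and 4 PHLac-high, paired by repeat) was enriched for mRNA and sequenced paired end after second-strand dUTP marking, per the labels' protocols. The submitters' processing notes name STAR, SAMtools, Subread and DESeq2 with hg38, without roles or versions. From its values, the deposited signal per gene is a read count that the authors divided by 1 size factor per library: 100% of values in each column were whole multiples of 1 step (within 0.01 read), which gave whole reads. The table also holds the authors' log2 fold change and the authors' adjusted p-value, which is under 0.05 for every gene listed.

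Groups and repeat numbers came from the sample titles. limma (3.58.1, R 4.3.3) with a mean-variance trend was fitted to log2(value + 1) of all 3666 genes, with the repeat as a block because the series description calls the samples paired. Within a repeat, the departures of both libraries from the mean of their fraction correlated across genes at 0.53, 0.66, 0.73 and 0.76. Nothing in the labels says that repeats were separate cultures. The p-values with the block therefore measure only the spread of the differences within repeats of these samples. The recovered reads also went, with the block and the authors' size factors, through DESeq2 1.42.0 and the quasi-likelihood test of edgeR 4.0.16, which each called all 3666 genes. The limma, edgeR and DESeq2 fits were checked on simulated counts. Other alternatives were no block, each repeat left out, a pseudocount of 0.1, upper-quartile scaling, a minimum change of 0.5 and a floor at the median expression. Correction for GC content and length (lowess, span 0.3) was added after seeing the data. This correction and the upper-quartile scaling were estimated on the listed genes alone, which the authors listed as different between the fractions. Either can therefore remove part of a change between the fractions.

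Members, classes and lists were chosen with earlier results of these data known. Genes were named by rule: in each class up to 3 largest increases and 3 largest decreases with the same sign in all 4 repeats and a mean of at least 100, the gene with the highest level per kilobase, and a fixed group; other genes were described by class after their values were seen. Transcript length and GC content are those of the longest protein-coding transcript in GENCODE 29 (the longest of any type for noncoding genes), found for 63 of the 64 genes, and positions are from that release (GRCh38). Motifs were searched in RefSeq windows of 250 bases. Partner genes were listed by role. Values of 2 of the 64 genes are not reported here individually, though the counts over all genes and classes include them.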

Additional observations from a re-analysis of the deposited data

Results flagged for a closer look

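In 80 groups of 4 values (the 40 genes named by rule in each fraction), the gap between the farthest library and its neighbour was divided by the range of the 4 values. Chance picks out about 4 such groups, and 1 was found. SLC27A1 in PHLac-low measured 1451 normalised counts in repeat 4 against 2282 to 2442 in the other 3 libraries, a gap of 0.839 of the range. Repeat 4 gave the lowest PHLac-high value too, 775.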

How the results depend on the processing

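With all 64 solute carrier genes past the threshold in limma with the replicate block, edgeR and DESeq2 with that block and a pseudocount of 0.1 each also gave 64, and leaving out 1 repeat gave 59 to 63 (3468 to 3627 of all 3666 genes). Without the replicate block 19 passed, or 29.7% (31% of all listed genes). Among the 40 genes named by rule, 12 still passed without it (SLC3A2, SLC12A2, SLC16A5, SLC16A14, SLC26A1, SLC34A3, SLC4A11, SLC41A1, SLC25A32, SLC25A44, SLC35A2 and SLC27A3). A minimum log2 change of 0.5 left 25, and the floor at the median expression left the 31 genes above it, both by construction. Upper-quartile scaling gave 44, or 68.8% (64.4% of all listed genes). Of these 8 were higher and 36 lower (18.2% higher among those called, against 43.8%). After it 13 of the 40 named genes, all higher ones, no longer passed. The GC content and length correction gave 46, or 73% (66.5% of all listed genes with a transcript), and 8 of 39 named genes no longer passed.

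The median log2 change of the 64 genes, -0.30, was -0.53 with upper-quartile scaling, which lowers every gene, -0.031 after the GC content and length correction, and 0.26 with the floor at the median expression, which leaves out the scarcer genes. It ranged from -0.31 to -0.27 when 1 repeat was left out. The median of the nucleotide carriers, -0.35, changed sign to 0.023 at the expression floor and to 0.11 after the GC content and length correction, where SLC35E2 (in both) was not measured. No named gene changed direction in any of 421 comparisons, of which 367 kept their side of the threshold and 54 no longer passed. The cause was not tested. Dropping the block or applying the expression floor could not change a direction, because the estimates stay the same. Nor could leaving out 1 repeat for a gene with the same sign in all 4 repeats, as all named genes but SLC7A11 had. Genes under 20 reads in a library (4 of the 64) limit what can be said of SLC40A1, SLC44A3, SLC23A1 and SLC16A8.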
